A study of Mus musculus with 4 samples.

Results

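Fibroblast growth factor (FGF) signaling was examined through 10 genes: the secreted ligands Fgf15 and Fgf17, the receptor tyrosine kinases Fgfr1, Fgfr2 and Fgfr3, and the response genes Etv4, Etv5, Spry1, Spry2 and Dusp6. They were chosen by name, with earlier results of these data in view, and all 10 of 10 were present among the 16600 genes measured. Single-cell (sc) RNA-Seq had been performed on neuronal cells sorted from the cortex late in gestation (E18.5), from 2 Setd5+/+ and 2 Setd5+/- mouse fetuses. The sort kept cells positive for the pan-neuronal surface protein CD24 and negative for the hematopoietic protein CD45. Setd5+/- fetuses carry a loss of function allele of Setd5, a SET-domain gene linked to autism and intellectual disability. Each fetus gave 1 library, named here by the prefix of its cells: WT3 and WT6 for Setd5+/+, Het5 and Het9 for Setd5+/-.

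An FGF ligand binds a receptor on the same or a neighboring cell, and the receptor acts through the RAS and MAP kinase cascade. The ETS transcription factors Etv4 and Etv5 are switched on downstream, together with inhibitors that damp the cascade: the sprouty proteins Spry1 and Spry2, and Dusp6, a phosphatase of ERK. In the embryonic forebrain, Fgf8 and Fgf17 are secreted at the rostral midline, Fgf15 is expressed in progenitors nearby, and the receptors are carried by radial glia, the neural stem cells of the cortex.

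The promoters of 3 response genes are shown because these genes were most frequent in different cells below: Etv5 in radial glia-like cells, Spry1 in the few cells with Fgf17, and Dusp6 in melanocyte-like cells. Each is the 250 bases before the RefSeq gene start, read 5′ to 3′ on the strand of the gene (GRCm38.p6). For Etv5 the start of the GENCODE gene, whose position is given further on, lies within this window, so that the larger part of it is inside that gene. Capitals mark GGAA and its reverse complement TTCC, the core of an ETS site.
Etv5, chr16:22439571-22439820, minus strand: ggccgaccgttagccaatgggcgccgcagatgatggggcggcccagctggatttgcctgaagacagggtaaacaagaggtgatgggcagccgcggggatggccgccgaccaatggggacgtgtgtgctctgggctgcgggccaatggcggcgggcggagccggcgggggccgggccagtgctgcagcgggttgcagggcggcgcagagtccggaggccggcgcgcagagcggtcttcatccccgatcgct
Spry1, chr3:37639697-37639946, plus strand: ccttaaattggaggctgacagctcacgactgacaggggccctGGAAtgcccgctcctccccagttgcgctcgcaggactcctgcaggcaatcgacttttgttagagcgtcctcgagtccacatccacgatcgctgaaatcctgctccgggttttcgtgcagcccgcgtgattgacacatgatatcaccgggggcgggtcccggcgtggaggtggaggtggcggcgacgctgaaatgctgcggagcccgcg
Dusp6, chr10:99262981-99263230, plus strand: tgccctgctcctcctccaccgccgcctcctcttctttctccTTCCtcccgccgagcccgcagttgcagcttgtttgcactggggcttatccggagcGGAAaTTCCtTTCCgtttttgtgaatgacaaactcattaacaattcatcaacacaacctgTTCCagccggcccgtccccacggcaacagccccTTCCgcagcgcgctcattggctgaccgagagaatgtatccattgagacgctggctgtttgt
The Etv5 window held 0 cores, the Spry1 window 1 and the Dusp6 window 6, against a median of 3 over all 32851 promoter windows, 8.69% of which held at least as many as Dusp6. The longer ETS motif CCGGAAGT was present in 3.89% of all windows on either strand, and the Capicua motif TGAATGAA in 1.30%. Neither was in the 8 windows of the 6 members that the RefSeq table held.

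The 4 libraries held 1445 to 1954 cells and 8205330 to 11742956 unique molecular identifiers (UMIs, each counting 1 captured transcript). A level below is the mean number of UMIs of a gene per 10000 UMIs of a cell, over the cells of a library. Setd5 itself was at 1.18 and 1.07 in WT3 and WT6 and at 0.540 and 0.586 in Het5 and Het9, a log2 fold change of -0.89 (SE 0.075, adjusted p = 0.00696 by limma with Benjamini-Hochberg adjustment). Xist, the transcript of the silenced X chromosome, was at 20.6 and 21.5 in Setd5+/+ and at 0.152 and 0.310 in Setd5+/-, so that genotype and fetal sex cannot be told apart. Of all cells, 90.2% had a UMI of Cd24a and 1.25% had one of Ptprc, which encodes CD45, and 74 of the 82 Ptprc cells were in 1 cluster. Cd24a was found in 70.1% of cluster 7 but in 3.4% of melanocyte-like cluster 10, which goes against the label of the sort. In clusters 10 and 11, 224 of the 252 cells carried a barcode present in all 4 libraries, so their values are not compared between genotypes.

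Cells were grouped without the members into 14 clusters, numbered from 0 by size. Cluster 7 (344 cells; led by Aldoc, Mt3 and Fabp7) was radial glia-like, and cluster 4 (615 cells; led by Ttr, 1500015O10Rik and Neurog2) radial glia and intermediate progenitor-like. Ttr was in only 0.488% of the cells of cluster 4, 1500015O10Rik in 34.5% and Neurog2 in 76.4%. Cluster 3 (701 cells; led by Ebf1, Isl1 and Zfhx3) was striatal neuron-like by its leading genes, though Ebf1 was in 15.6% and Isl1 in 34.2% of its cells. Cluster 6 (378 cells) was subpallial progenitor-like and cluster 0 (1427 cells) excitatory neuron-like. Cluster 10 (147 cells; led by Dct, Pmel and Gpnmb) was melanocyte-like. Levels between clusters are a description with no test, since clusters were drawn from the same cells. Depth differs between clusters, so shares were also read after every cell was thinned to 3000 UMIs, which left out 526 cells.

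The ligands were rare. Fgf15 (chr7:144896531-144900953, plus strand) had 582 UMIs in 185 of 6562 cells, and 84.5% of these UMIs were in clusters 3 and 7. In cluster 3 Fgf15 was at 1.01 in WT3, 1.16 in WT6, 0.311 in Het5 and 0 in Het9. In cluster 7 it was at 0.550, 1.41, 0.724 and 0.446 in the same order. The mean over libraries was 0.781 ± 0.432 (SD, n = 4) in cluster 7 and 0.622 ± 0.557 in cluster 3, and the ranges of these overlapped. Fgf15 was detected in 14.5% of the cells of cluster 7 and 11% of cluster 3 (median depth 7134.5 and 3986 UMIs), against 0.210% of the excitatory neuron-like cluster 0 (median depth 5704). After thinning, these shares were 10.6%, 10.3% and 0.151%. Cluster 6 followed with 4.23% of cells and a level of 0.124 ± 0.162.

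**Figure D1:**
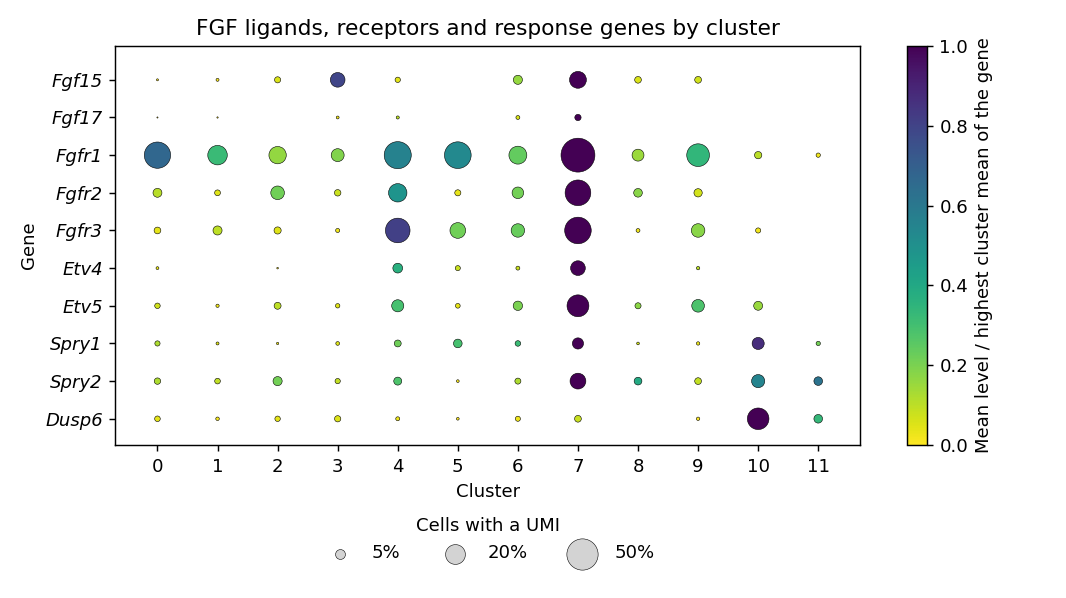
Dot plot of the 10 genes (rows) in clusters 0 to 11 (columns). Dot area gives the percentage of cells with a UMI, and color gives the mean level over the 4 libraries divided by that of the gene's highest cluster. Cluster 7 is the highest for 9 of the 10 genes, and Dusp6 is highest in cluster 10; with the members kept in clustering the count is 1, since cluster 7 then divides 182 to 162 between other clusters.

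In cluster 3 the Fgf15 cells were mostly apart from those that gave it its name. At a higher clustering resolution, 378 cells of cluster 3 formed a group led by Ebf1, Zfp503 and Isl1 with Fgf15 in 5 cells (1.32%), and 280 a group led by Htr3a, Fgf15 and Zic4 with Fgf15 in 62 (22.1%). The latter was at 2.06 in WT3, 2.87 in WT6, 0.668 in Het5 and 0 in Het9. Cluster 7 divided likewise into 171 cells led by Mt3, Fabp7 and Ednrb, 22.8% with Fgf15, and 172 led by Aldoc, Gas1 and Ccdc80, 6.40% with Fgf15.

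Within both clusters, the Fgf15 cells were mostly cells with a UMI of a Zic gene (Zic1, Zic2, Zic4 or Zic5, transcription factors of the septum and other midline forebrain). Of the 185 Fgf15 cells, 142 had a Zic UMI. In cluster 3, Zic1 was found in 71 of 77 Fgf15 cells (92.2%; 95% exact binomial interval 83.8 to 97.1) and in 11.1% (8.71 to 13.8) of the 624 others. In cluster 7 it was found in 64.0% (49.2 to 77.1) of 50 Fgf15 cells and 22.8% (18.1 to 28.0) of the 294 others. Intervals cover counting error only.

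The Zic-positive cells of cluster 3 had Fgf15 at 3.05 in WT3 (45 cells), 4.84 in WT6 (70 cells), 1.42 in Het5 (25 cells) and 0 in Het9 (5 cells). The other cells of the cluster were at 0.0594, 0.0333, 0 and 0. Every library with Fgf15 in cluster 3 therefore had it at a higher level in the Zic-positive cells. In cluster 7, Zic-positive cells (23, 61, 48 and 14 cells) were at 1.08, 2.61, 1.48 and 1.56 and the others at 0, 0.307, 0.235 and 0. The Zic-positive value of Het9 rests on 12 UMIs in 2 cells.

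Across clusters, cells were also divided by Zic and by Dlx UMIs, the latter marking subpallial inhibitory lineages. Fgf15 was highest in cells with both in every library but Het9. Fgf15 was at 1.32, 2.14, 0.842 and 0 in the Zic and Dlx cells of WT3, WT6, Het5 and Het9 (104, 184, 108 and 23 cells). In cells with Dlx but no Zic UMI it was at 0.0428, 0.0380, 0.0239 and 0. Cells with Zic but no Dlx UMI were in between in the first 3 libraries, at 0.246, 0.616 and 0.0978. In Het9 they were at 0.156, from those same 2 cells of cluster 7, and both kinds of Dlx cell were at 0. Over the 48 profiles made by 12 clusters and 4 libraries, which share their libraries and depths, the genes most like Fgf15 were Zic4 (Pearson r = 0.75), Cspg5 (0.74) and Ptch1 (0.72), the last a receptor of Hedgehog ligands.

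**Figure D2:**
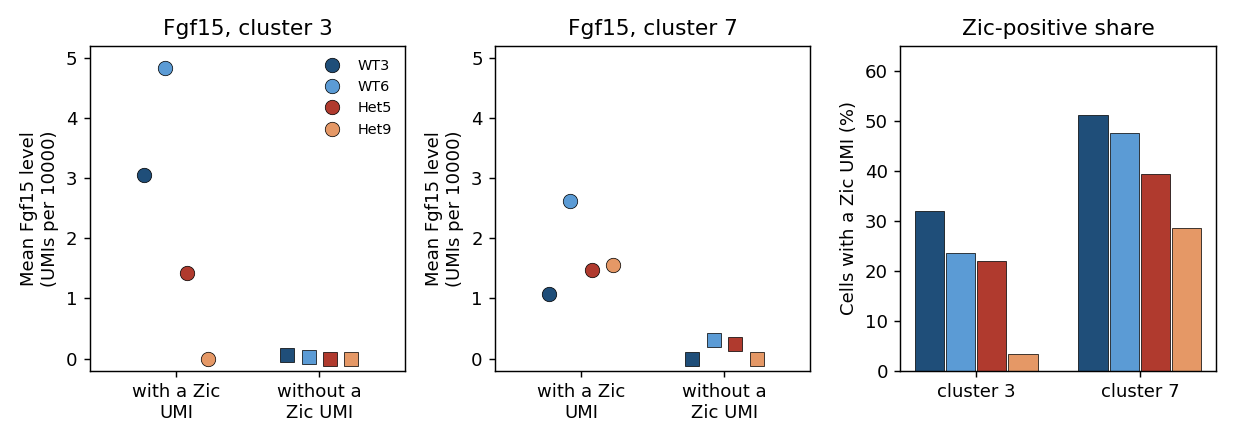
Left and middle, mean Fgf15 level (UMIs per 10000) of each library in cells with and without a UMI of Zic1, Zic2, Zic4 or Zic5, for clusters 3 and 7. Right, percentage of cells with a Zic UMI; Het9 has the lowest share in both clusters, 3.38% and 28.6%, and its 5 Zic-positive cells of cluster 3 have no Fgf15 UMI.

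Fgf17 (chr14:70636203-70642268, minus strand) had 95 UMIs in 18 cells. Of these UMIs 58 came from 2 cells of WT6, 31 in a cell of cluster 7 and 27 in a cell of cluster 4. Cluster 7 held 7 of the 18 cells, clusters 3, 4 and 6 held 3 each, 2 were elsewhere, and 14 of the 18 were of Setd5+/+ fetuses. Zic4 was detected in 16 of the 18 cells (88.9%; 65.3 to 98.6) and in 6.57% (5.98 to 7.20) of all others. Olig1, a transcription factor of ventral progenitors and oligodendrocyte precursors, was in 11 of 18 (61.1%; 35.8 to 82.7) against 1.57% (1.29 to 1.91). Fgf8, the closest relative of Fgf17, was in 8 of 18 (44.4%; 21.5 to 69.2) against 0.0917% (0.0336 to 0.200).

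Both ligands were found together in 4 cells, all of WT6 and 3 of them in cluster 7. Fgf15 was in 4 of the 18 Fgf17 cells (22.2%; 6.41 to 47.6) and in 2.77% (2.38 to 3.19) of the others. Of the 18 Fgf17 cells, spread over several clusters, 16 had Zic4 and 11 had Olig1. Fgf8 was in 8 of them, all of Setd5+/+ fetuses. Most Fgf15 cells were in the Zic-positive, Dlx-positive population. The profiles most like that of Fgf17 were those of Slc14a2 (r = 0.78), Acsbg1 (0.75) and Ptch1 (0.75), a likeness that rests on the 7 cells in cluster 7.

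The receptors were broader. Fgfr1 (chr8:25513654-25575718, plus strand) was detected in 1650 cells (25.1%), Fgfr3 (chr5:33721674-33737068, plus strand) in 539 cells (8.21%) and Fgfr2 (chr7:130162451-133123350, minus strand) in 437 cells (6.66%). All 3 were highest in cluster 7. Fgfr1 was found in 58.7% of its cells, at a level of 1.41 ± 0.250, and followed in excitatory neuron-like cluster 0 (0.942 ± 0.153), cluster 4 (0.781 ± 0.145) and cluster 5 (0.744 ± 0.166). Each of these 4 overlapped the next in its range over libraries.

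Fgfr2 and Fgfr3 were concentrated in the progenitors. Fgfr2 was found in 33.7% of cluster 7 (0.676 ± 0.333) and 17.2% of cluster 4 (0.325 ± 0.0696), and was at 0.147 ± 0.0313 in cycling cluster 2. The ranges of these neighbors did not overlap. After thinning, Fgfr2 was in 16.8% of cluster 7 and 8.43% of cluster 4. Fgfr3 was found in 36.0% of cluster 7 (0.854 ± 0.108) and 30.9% of cluster 4 (0.694 ± 0.110), which overlapped, while subpallial progenitor-like cluster 6 was at 0.197 ± 0.0219 with no overlap. The thinned shares of Fgfr3 in clusters 7 and 4 were 18.8% and 17.4%. In cluster 0, Fgfr1 was found in 35.3% of cells but Fgfr2 in 4.06% and Fgfr3 in 2.31%. The genes most like Fgfr3 were the glutamate transporter gene Slc1a3 (r = 0.95), Vcam1 (0.93) and Col2a1 (0.91), and those most like Fgfr2 were the Notch target Hes5 (0.89), Rfx4 (0.89) and Rgma (0.88). Fgfr1 was most like Nckap5 (0.88), Mmd2 (0.87) and Fndc4 (0.86).

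The response genes differed in where they were found. Etv5 (chr16:22381309-22439719, minus strand) was found in 24.4% of cluster 7, at 0.613, 0.263, 0.533 and 0.518 in WT3, WT6, Het5 and Het9. It was next in cluster 4 (7.48% of cells; 0.142 ± 0.0553) and cluster 9 (8.19%; 0.136 ± 0.0760), and the range of cluster 7 lay above that of cluster 4. Etv4 (chr11:101769742-101785371, minus strand) was found in 11% of cluster 7, at 0.248, 0.141, 0.193 and 0.344, and in 4.88% of cluster 4, again with no overlap. After thinning, Etv5 was in 10.3% of cluster 7 and 3.31% of cluster 4, and Etv4 in 7.35% and 2.65%. Over the 48 profiles, Etv4 correlated with Fgfr3 (r = 0.83), Etv5 (0.78), Fgfr2 (0.77), Fgf17 (0.63), Fgfr1 (0.59) and Fgf15 (0.45). Etv5 correlated with Fgfr3 (0.66), Fgfr2 (0.63), Fgf17 (0.59), Fgfr1 (0.41) and Fgf15 (0.40). For both, Fgfr1 came below Fgf17, but Fgf17 was found in only 18 cells, and the profiles share their libraries and depths. The order of these correlations was not tested.

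Spry2 (chr14:105891947-105896819, minus strand) was found in 12.8% of cluster 7 (0.327 ± 0.123) and 8.84% of melanocyte-like cluster 10 (0.179 ± 0.0972). Spry1 (chr3:37639947-37644598, plus strand) was found in 6.40% of cluster 7 (0.165 ± 0.135) and 7.48% of cluster 10 (0.144 ± 0.0575). Both overlapped between these clusters, and after thinning Spry2 was in 5.59% of cluster 7 and 6.50% of cluster 10. Dusp6 (chr10:99263231-99267489, plus strand) was found in 23.8% of cluster 10, at 0.676, 0.439, 0.635 and 0.731, and in 2.33% of cluster 7, where 24.4% of cells had Etv5. Since 140 of the 147 cells of cluster 10 carry barcodes found in all 4 libraries, those 4 values are not 4 independent fetuses. The thinned shares of Dusp6 were 16.3% in cluster 10 and 1.47% in cluster 7. The genes most like Dusp6 were Chchd10, Nceh1 and Lmna (r = 0.92 each), and those most like Spry1 were Pdgfa (0.73), Sparc (0.73) and Myl9 (0.71).

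Whether the response genes follow the ligand was read within single cells, between cells with and without a ligand UMI. In cluster 3, which held the most Fgf15 cells, 4 of the 5 response genes were rare with or without it. Etv4 was found in 0 of its 701 cells. Taking 3 counts as the limit that a count of 0 allows, here and for the zeros below, the share of cells with a UMI could be up to 0.428%. Etv5 was in 1 of 77 Fgf15 cells (1.30%; 0.0329 to 7.03) and 0.962% (0.354 to 2.08) of 624 others. Spry1 was in 0 of 77 (up to 3.90%) against 0.801% (0.261 to 1.86), and Spry2 in 1.30% against 1.44%.

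Dusp6 in cluster 3 was found in 8 of 77 Fgf15 cells (10.4%; 4.59 to 19.5) and 6 of 624 others (0.962%; 0.354 to 2.08). The median depth was 6309 UMIs with Fgf15 and 3820 without. After every cell was thinned to 3000 UMIs, the counts were 5 of 58 (8.62%; 2.86 to 19) and 3 of 505 (0.594%; 0.123 to 1.73). The 8 cells were 3 of 25 in WT3, 5 of 43 in WT6 and 0 of 9 in Het5. Zic moved with both genes: 12 of the 16 Dusp6 UMIs of cluster 3 were in Zic-positive cells. Among these cells, Dusp6 was in 8 of 71 with Fgf15 (11.3%; 4.99 to 21) and 3 of 74 without (4.05%; 0.844 to 11.4), and the intervals overlapped. In cluster 7 it was in 1 of 50 Fgf15 cells (2.00%) and 7 of 294 others (2.38%). In cluster 0, which has almost no Fgf15, 1.61% of cells had a Dusp6 UMI.

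In cluster 7, cells with and without Fgf15 had overlapping intervals for Etv5 (22.0%; 11.5 to 36.0, against 24.8%; 20 to 30.2) and for Spry1 (6.00%; 1.26 to 16.6, against 6.46%; 3.94 to 9.91). Etv4 was in 1 of 50 Fgf15 cells (2.00%; 0.0506 to 10.7) and 12.6% (9.02 to 16.9) of 294 others. Fgfr2 was in 22.0% (11.5 to 36.0) against 35.7% (30.2 to 41.5), and Fgfr3 in 22.0% against 38.4% (32.9 to 44.3). No response gene was more frequent beyond its interval in the Fgf15 cells of the radial glia-like cluster.

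Spry1 accompanied Fgf17. It was found in 9 of the 18 Fgf17 cells (50%; 26.0 to 74.0) and in 1.54% (1.26 to 1.87) of the 6544 others. Within clusters 3, 4, 6 and 7, Spry1 was in 9 of 16 (56.2%; 29.9 to 80.2) against 1.93% (1.38 to 2.63), and within cluster 7 in 5 of 7 (71.4%; 29.0 to 96.3) against 5.04% (2.97 to 7.95). The median depth of the 7 cells was 4925 UMIs, below the 7168 of the other cells of cluster 7, and after thinning over all cells the counts were 5 of 11 (45.5%; 16.8 to 76.6) against 0.747% (0.545 to 0.998). The 9 cells came from WT3 (2 of 5), WT6 (6 of 9) and Het5 (1 of 3), with 0 of 1 in Het9. Among Zic-positive cells, Spry1 was in 9 of 16 with Fgf17 (56.2%; 29.9 to 80.2) and 47 of 1194 without (3.94%; 2.91 to 5.2). Cells with Fgf8 had Spry1 in 8 of 14 (57.1%; 28.9 to 82.3). Of these 14 cells, 8 also had Fgf17, so Fgf8 and Fgf17 cannot be told apart as the partner of Spry1.

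Other response genes in the Fgf17 cells rested on few counts. In clusters 3, 4, 6 and 7, Dusp6 was in 3 of 16 (18.8%; 4.05 to 45.6) against 1.43% (0.963 to 2.05), Etv4 in 3 of 16 against 3.36% (2.62 to 4.24), and Etv5 in 3 of 16 against 7.47% (6.36 to 8.70). The intervals of Etv4 and Etv5 overlapped those of the other cells. Spry2 was in 1 of 16 (6.25%; 0.158 to 30.2) against 3.96% (3.15 to 4.90).

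**Figure D3:**
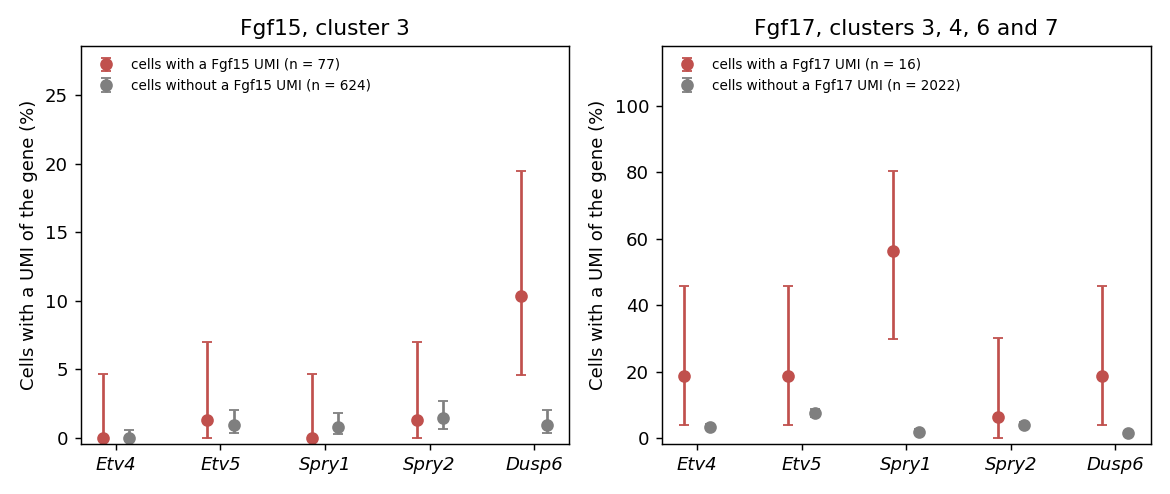
Percentage of cells with a UMI of each response gene in cells with (red) and without (grey) a UMI of Fgf15 in cluster 3 (left) or of Fgf17 in clusters 3, 4, 6 and 7 (right). Bars are 95% exact binomial intervals, which cover counting error only; Dusp6 stands apart on the left (10.4% against 0.962%), though its intervals overlapped within Zic-positive cells, and Spry1 on the right (56.2% against 1.93%).

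Between genotypes, Fgf15 had been named by the study on these cells, so its values are a description with no test. Over all cells it was at 0.140 in WT3, 0.320 in WT6, 0.0837 in Het5 and 0.0161 in Het9, and the lower Setd5+/+ library lay above the higher Setd5+/- library. In cluster 3 the groups were also apart (1.01 and 1.16 against 0.311 and 0), while in cluster 7 they overlapped. The log2 fold change in cluster 3 was -2.55 on the log2(level + 0.1) scale, and -1.53 without Het9. In Het9, 0 of 148 cells of cluster 3 had Fgf15, which allows up to 2.03% of cells with a UMI.

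The Zic content was lower in both Setd5+/- libraries, as Fgf15 was in cluster 3. The summed level of these 4 Zic genes in cluster 3, all 4 detected, was 5.59 and 5.04 in Setd5+/+ and 3.76 and 0.160 in Setd5+/-, with Zic2 and Zic4 at 0 in Het9. In cluster 7 it was 3.60 and 2.47 against 1.29 and 1.06, but WT3, with the most Zic, had less Fgf15 there than Het5. The study had named Zic1 and Zic4 too as lower in Setd5+/- cells of its own cluster 3. Without the cells with a Zic UMI, the log2 fold change of Fgf15 in cluster 7 was -0.14, against -0.56 with all cells. Among the Zic-positive cells given above, Het5 lay below both Setd5+/+ libraries in cluster 3 but not in cluster 7. Beyond these values, the part of Zic cell content in the Fgf15 values was not tested. In these samples, fewer cells of a type in the dissected tissue and a change within the cells cannot be told apart for a whole cluster.

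Of the 9 other members, 3 passed the filter on low values over all cells, and limma called 0 of them. Of all 8137 genes tested there, 0.086% were called, and 4.34% had an unadjusted p under 0.05, which none of the 3 members had. Fgfr1 was at 0.535 and 0.564 in Setd5+/+ and 0.669 and 0.585 in Setd5+/-, without overlap, as were 32% of all genes tested. Its log2 fold change was 0.16 (adjusted p = 0.994 by limma). For 2 libraries a side, the smallest p of a two-sided exact permutation test is 0.33.

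Within the 10 clusters compared (0 to 9), the other 9 members gave 28 tests that passed the filter, and 2 were past the threshold, both in cluster 7: Fgfr2, and Fgf17, which passed the filter only through the Setd5+/+ libraries. There 0.155% of 8414 genes were called, against 0.142%, 0.118%, 0.107%, 0.13%, 0.102%, 0.118%, 0.216%, 0.0398% and 0.0657% of all genes tested in clusters 0 to 6, 8 and 9. Fgfr2 was at 0.396 in WT3, 0.399 in WT6, 0.853 in Het5 and 1.06 in Het9. Both Setd5+/- libraries were above both Setd5+/+ libraries, with a log2 fold change of 1.08 (SE 0.24, adjusted p = 0.0482 by limma). The call lay at the threshold and was lost in 8 of the 14 alternatives that gave a value, with an adjusted p of 0.00574 to 0.996 over them; without Het9 it was 0.94 (adjusted p = 0.996). Split by Zic, the 2 genotypes did not overlap in Zic-positive cells (0.228 and 0.281 against 0.501 and 0.436). The Zic-positive levels rested on only 3, 14, 20 and 4 UMIs in WT3, WT6, Het5 and Het9. The other cells did not overlap either (0.572 and 0.507 against 1.08 and 1.31), from 22, 67, 74 and 35 cells with 8, 22, 56 and 33 UMIs. The share of all genes without overlap in these parts was not computed. Among markers of cluster 7, limma called Fabp7 alone (adjusted p = 0.00499 for a log2 fold change of 0.38) of the 11 that passed the filter. Groups did not overlap for 35.5% of all genes tested there. Of the 9 radial glia markers, Fabp7 (79.9 and 66.7 against 89.8 and 101) and Aldoc were higher in both Setd5+/- libraries, Slc1a3 (8.99 and 7.48 against 6.26 and 6.49), Vim, Hes1 and Sox2 were lower in both, and 3 overlapped. Their summed level was 138 and 121.4 against 140.9 and 157.6. Of the 5 glial progenitor markers, Olig1 (1.78 and 1.45 against 0.771 and 1.20) and Olig2 were lower in both Setd5+/- libraries, Sox10 was higher and 2 overlapped, and their summed level was 2.69 and 2.39 against 1.38 and 1.8. The part of such cell content in the values of Fgfr2, Fgf17 and Spry1 was not tested.

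Fgf17 in cluster 7 was at 0.627 and 0.578 in WT3 and WT6 and at 0.179 and 0 in Het5 and Het9, a log2 fold change of -2.07 (SE 0.36, adjusted p = 0.00245 by limma). The Setd5+/- mean was 0.0893, under the filter of 0.1, so that Fgf17 entered the test only through the Setd5+/+ libraries, and the call cannot be read apart from that. These levels come from 7 cells, 5 of them Setd5+/+, and in Het9 0 of 49 cells allows up to 6.12% with a UMI. Without the cell of 31 UMIs the log2 fold change was -1.02 (adjusted p = 0.807), and without Het9 it was -1.33 (adjusted p = 0.119).

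Spry1 in cluster 7 was at 0.273 and 0.288 against 0.0720 and 0.0277, without overlap and with a log2 fold change of -1.36 that missed the threshold (SE 0.36, adjusted p = 0.167 by limma). It too passed the filter only through the Setd5+/+ libraries (Setd5+/- mean 0.0499). In Zic-positive cells Spry1 was at 0.388 and 0.541 against 0.152 and 0.0970, from 5, 20, 4 and 1 UMIs. The other cells held 2, 3, 1 and 0 UMIs, too few to compare. Fgfr1 in cluster 7 was at 1.65 and 1.56 against 1.32 and 1.10 (adjusted p = 0.799 for a log2 fold change of -0.39). Groups did not overlap for Fgf17, Fgfr1, Fgfr2, Fgfr3 and Spry1, and for 35.5% of all genes tested there. Dusp6 (0.124 and 0.0608 against 0.0274 and 0) did not pass the filter and rests on 9 UMIs. Etv4, Etv5 and Spry2 overlapped between genotypes, with log2 fold changes of 0.32, 0.30 and 0.23.

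**Figure D4:**
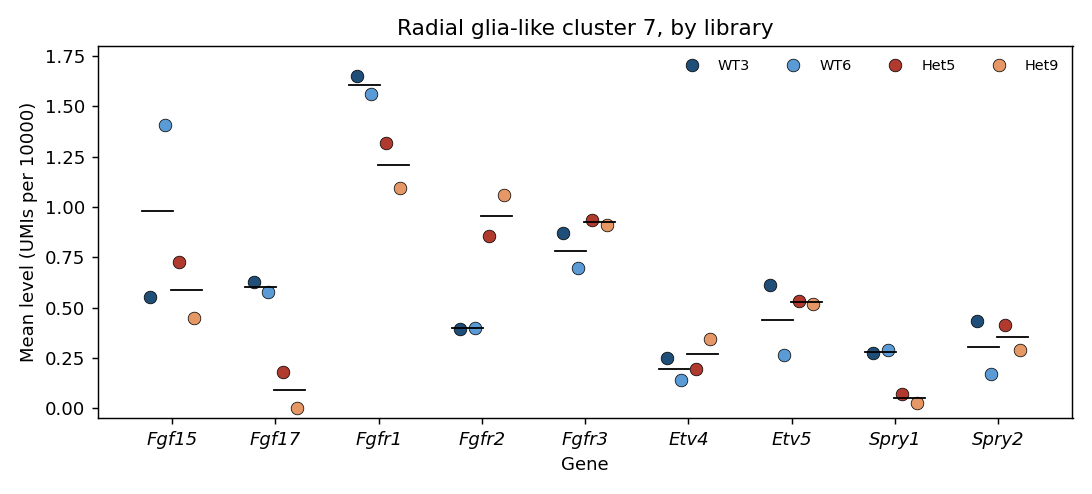
Mean level (UMIs per 10000) in cluster 7 of the 9 genes that passed the filter, a point for each library, with a bar at the mean of the 2 libraries of a genotype. Fgfr2 is higher in both Setd5+/- libraries (0.853 and 1.06 against 0.396 and 0.399), while Fgf17 and Spry1 are lower and Etv4 and Etv5 overlap.

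In the other clusters none of the 9 other members was called. In cluster 0, Fgfr1 was at 0.843 and 0.838 against 1.17 and 0.923 (adjusted p = 0.905 for a log2 fold change of 0.27). In cluster 4, Fgfr1 (0.878 and 0.919 against 0.724 and 0.603) and Fgfr2 (0.390 and 0.375 against 0.294 and 0.242) were each at a log2 fold change of -0.39 (adjusted p = 0.978). In cluster 6, Fgfr2 was at 0.0599 and 0.0964 against 0.154 and 0.265 (adjusted p = 0.776 for a log2 fold change of 0.78).

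The wider pathway list of 76 genes, members included, had 66 in the table. Of these, 43 were detected in at least 10% of the cells of a cluster with 20 or more cells in each library. The count of 43 includes genes that reached 10% only in clusters left out of the genotype counts, such as Sdc4 (36.7% of cluster 10, 8.14% of cluster 7). Of the 22 ligands listed, 15 were in the table and 3 reached the share of 10%, among them Fgf13 (38.4% of cluster 7), a member of the intracellular FGF family. Among genes of ligand binding, Fgfbp3, which carries FGFs in the matrix, was in 65.1% of cluster 7, at 3.48, 3.21, 3.96 and 3.83 in the 4 libraries, and in 27.8% of cluster 4. The feedback inhibitor gene Spred1 was in 39.2% of cluster 7, and Etv1, a relative of Etv4 and Etv5, was highest in interneuron-like cluster 8 (26.3%). Fgf3 was in 51 cells of cluster 3 (7.28%) and was at 0.270 and 0.211 against 0.117 and 0.199 there. Over all cells 35 of the list passed the filter and 0 were called, with a median log2 fold change of -0.0050 against -0.0024 over all genes. In cluster 7, 39 passed, and the 2 called were Fgfr2 and Fgf17, the latter with the limit of the filter given above (median 0.00056 against -0.017).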

How the data were processed

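The authors deposited the natural log of 1 plus each gene's UMIs per 10000 in the cell. The submitters' processing notes list Cell Ranger 2.1, Seurat 2.3.0 and build mm10. Annotation, strand setting and cell filters: not given in the sources used here. Whole UMIs were recovered for 100% of the 14848520 values above 0 (tolerance 0.001), from 1258 to 14996 a cell. The members and gene lists were chosen with earlier results of these data known. Clusters were made with scanpy 1.11.5 and leidenalg 0.10.2 from 2000 variable genes, 85 genes (members, pathway, sex genes and genes the study named) being left out, with 20 principal components, 20 neighbors and resolution 0.3. Scrublet called 64 doublets (0.975%), which were kept. Genotypes were compared over fetuses with limma 3.58.1 (R 4.3.3) with a variance trend, on log2(mean level + 0.1), where the mean reached 0.1 and each library had 20 or more cells of the cluster. Adjustment was by Benjamini-Hochberg over all genes tested (threshold 0.05). The scale understates changes of low genes. On simulated data with a log2 change of 1 in either direction, 99% of 200 changed genes were recovered over all cells, with 3 false calls. In cluster 7 only 29.2% of 195 were recovered, with 5 false calls, so a gene not called there may still differ. Clusters 10 and 11 were left out of genotype counts after their shared barcodes were seen. Genes named are the members, Setd5, sex genes, the 3 leading and the 3 most alike genes, and pathway genes at 10% of a cluster; Fgf3, Fgf8, Olig1 and the single Zic genes were named after their values were seen, as were GGAA cores and the comparisons within Zic-positive cells. Likeness was computed over genes with a level of at least 0.5 in some profile. Gene positions are from GENCODE M21 (GRCm38). Prefixes show the genotype but no replicate number, so libraries are named by prefix.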

Additional observations from a re-analysis of the deposited data

Results flagged for a closer look

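The genotype differences of Fgfr1, Fgfr2 and Fgfr3 had opposite signs in several pairs of clusters, with the libraries of the 2 genotypes not overlapping in either cluster. These pairs were picked for that pattern. Groups did not overlap for 32% of all genes tested over all cells and for 35.5% in cluster 7. The share of all genes with opposite signs in a pair of clusters was not computed. The difference of the Setd5+/- minus Setd5+/+ log2 fold changes, first cluster minus second, was tested in limma over all genes, and no pair passed adjustment (adjusted p of 0.8 to 0.982). For Fgfr1 the difference was 0.67 between clusters 0 and 4, 0.66 between 0 and 7, and 0.82 between 0 and 9. It was 0.66 between clusters 3 and 4, 0.66 between 3 and 7, and 0.82 between 3 and 9. For Fgfr2 it was 0.63 between clusters 2 and 4, -1.17 between 4 and 6, and -1.47 between 4 and 7 (adjusted p = 0.901). For Fgfr3 it was -0.36 between clusters 6 and 7.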

How the results depend on the processing

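Over all cells, the count of the 9 members other than Fgf15 called was 0 under each alternative run, leave-one-out fits included. In clusters 0 to 9 the count of 2 calls held with a pseudocount of 1, without the filter and without shared barcodes. It was 1 with summed UMIs, with doublets left out and with cells thinned to 3000 UMIs. It was 0 with a pseudocount of 0.01, at a resolution of 0.6, with the members kept in clustering and in 2 alternatives added after seeing the data: without the cell of most Fgf17 UMIs in each cluster and without cells with a Zic UMI, where Fgfr2 in cluster 7 was at 1.01 (adjusted p = 0.779 by limma). Leaving out a library gave 0 (Het9) to 2 calls, and the lone Het5 library was then assumed to vary like the others. The Fgf15 log2 fold change of cluster 7 (-0.56) reversed to 0.045 without WT6 and was -1.17 without WT3; in cluster 3 it was -4.28 and -0.87 with pseudocounts of 0.01 and 1. Cluster 7 was the highest for 9 members, for 10 without shared barcodes and for 8 by thinned shares. At the higher resolution, 7 members were highest in 1 of the groups into which cluster 7 divided. Fgf15 was then highest on average in the group led by Htr3a, Fgf15 and Zic4. Its range overlapped that of the group led by Mt3, Fabp7 and Ednrb (0.624, 2.48, 1.47 and 0.859 in WT3, WT6, Het5 and Het9). With the members kept in clustering the count was 1, since cluster 7 was divided 182 to 162 between clusters merged with 6 and 4, and 6 members were highest in 1 of these. No paired analysis was possible because the cell prefixes carry no replicate number. Resolution lower by 0.3 would be 0 and was not run. The planned test of members in cells with an Fgf15 UMI was not run, nor its alternatives, since no cluster held 20 such cells in each library; the shares of cells stand in its place.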
